A study of Drosophila melanogaster with 12 samples.

Results

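The mitochondrial ribosomal protein genes of Drosophila melanogaster were taken as every gene of the deposited expression table whose symbol begins with mRpL or mRpS, with case respected. This rule used names only and found 73 of the 24134 genes, of which 47 are mRpL genes (large subunit) and 26 are mRpS genes (small subunit). The study asked how loss of dERR, the fly's single estrogen-related receptor, affects gene expression in the larval fat body, and it compared this tissue with whole animals. RNA-seq was made from 4 groups of 3 libraries, all from L2 larvae in a w1118 background, labelled as 60 h old and raised at 25 °C. The groups were fat bodies of dERR mutants carrying ERR1 over ERR2, fat bodies of heterozygous controls carrying ERR1 over a wild-type chromosome, whole animals of the mutant genotype and whole animals of the control genotype. The ERR1 allele was therefore present in every library, and the controls had 1 functional copy of the gene. Each fat body library came from a pool of dissected larvae, and the study calls the pools of a genotype technical replicates, so the p-values below measure the spread between these libraries.

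Mitochondria carry their own ribosome, which makes the few respiratory chain proteins that the mitochondrial genome still encodes. Its RNAs come from the mitochondrial genome, while all of its proteins are encoded in the nucleus, made in the cytosol and imported. Many of these proteins descend from bacterial ribosomal proteins, and others exist only in mitochondria. The larval fat body, which combines roles of liver and adipose tissue, stores lipid and also oxidises it in its mitochondria. In mammals, estrogen-related receptors are known as activators of nuclear genes for mitochondrial proteins.

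All values are regularised log2 values (rlog), so a difference of 1 is a doubling. The transcript level of ERR itself was 8.40, 8.25 and 8.39 in the mutant fat bodies, against 9.11, 9.24 and 8.29 in the control fat bodies. The library labelled control replicate 7 stood among the mutants for this gene, and the difference did not pass (log2 fold change −0.53, SE 0.21, limma adjusted p = 0.0948). In whole animals ERR was 8.21, 8.28 and 8.01 in mutants, against 8.16, 8.39 and 8.37 in controls (limma adjusted p = 0.959), so its RNA level does not check the labels there. The library labelled control replicate 7 was not like the mutants for Lsp1gamma, a larval serum protein gene switched on late in larval life. That gene was between −0.37 and −0.13 in the mutant fat bodies, 15.3 in replicate 7 and 7.60 and 7.77 in the other control fat bodies. The same library held more RNA of muscle marker genes than any other fat body (summed level 11.1, against 8.95 to 9.68 in the mutants), and it is treated separately below. The fat body marker list summed to 19.1 to 20.0 in fat bodies and 16.7 to 17.2 in whole animals, and the midgut list to 3.09 to 4.90 in fat bodies and 16.4 to 17.1 in whole animals. Not every marker followed the tissue labels. Gonad markers summed to 3.33 to 8.17 in mutant fat bodies and 3.85 to 8.99 in control fat bodies, against 6.70 to 7.49 in mutant whole animals and 5.94 to 7.40 in control whole animals, so some fat body libraries stood above the whole animals. The germline gene vas was highest in the library labelled control replicate 7 (7.56) and in mutant fat body replicate 1 (6.23). Of the fat body list, Lsp1beta and Lsp1gamma were higher in all 3 control whole animals than in control fat body replicates 5 and 6. bmm had 7.61, 5.83 and 7.23 in mutant fat bodies, against 8.53, 7.48 and 8.84 in mutant whole animals. Of the 11 genes of this list, 4 in mutant and 3 in control fat bodies had a mean under 10 on the linear scale. The part of these tissues in the results below was not tested.

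All 73 genes were expressed above the filter used for testing, which was a mean of at least 10 on the linear scale in 1 or more groups (10069 genes in all). To compare levels between genes, each value was set per kilobase of the gene's longest annotated transcript. On this scale the median gene stood at 10.1 in mutant fat bodies, 10.1 in control fat bodies, 9.45 in mutant whole animals and 9.31 in control whole animals. In control fat bodies the highest and lowest genes differed 5.70-fold, and large and small subunit genes had medians of 10.1 each.

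mRpL12, which encodes a protein of the stalk that recruits translation factors, was the highest in every group. Its level per kilobase was 11.58 ± 0.07 in mutant fat bodies and 11.49 ± 0.41 in control fat bodies, and 10.66 ± 0.07 in mutant whole animals and 10.54 ± 0.07 in control whole animals (SD, n = 3 each). mRpL30 and mRpS7, a protein of the small subunit head, ranked next in control fat bodies. mRpL30 stood at 11.18 ± 0.12 in mutant fat bodies and 10.06 ± 0.09 in control whole animals, and mRpS7 at 10.63 ± 0.06 in mutant fat bodies and 10.75 ± 0.32 in control fat bodies (SD, n = 3 each). At the other end stood mRpL21 at 8.98 ± 0.19, mRpS31 at 9.30 ± 0.12 and mRpL11, a protein at the base of the stalk, at 9.34 ± 0.20 in control fat bodies (SD, n = 3 each). The order is fine-grained and mostly not resolved: of 72 pairs of neighbours in it, only 1 had values that did not overlap in control fat bodies (mRpS31 over mRpL21), and 4 did so in mutant fat bodies. The lowest place also depends on annotation, because mRpL21 ranked 67 of 73 when the mean transcript length was used in place of the longest. Across the 73 genes the order was similar in mutant and control fat bodies (Spearman's rho 0.85) and in mutant and control whole animals (0.97). These are descriptions across genes, which are not independent and share libraries and lengths.

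In fat bodies few of these genes passed the test between dERR mutants and controls. Of the 73 genes, 1 was higher in mutants (mRpL43) and 2 were lower (mRpL35 and mRpL18) at a limma adjusted p under 0.05, while 22.3% of all genes tested passed in either direction. Without adjustment 8 of the 73 had p under 0.05, and no gene passed a test against a log2 fold change of 1. The median log2 fold change was 0.01 over the 73 genes (0.03 for mRpL, −0.02 for mRpS), against −0.07 over all genes tested, and 38 of the 73 changes were positive. The 95% interval of every gene lay within a log2 fold change of ±1, and that of 65 genes within ±1.5-fold. Mutant and control values did not overlap for 5 of the 73 genes, against 40% of all genes tested. In bulk samples a different share of a cell type and a different amount of RNA per cell cannot be told apart.

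**Figure D1:**
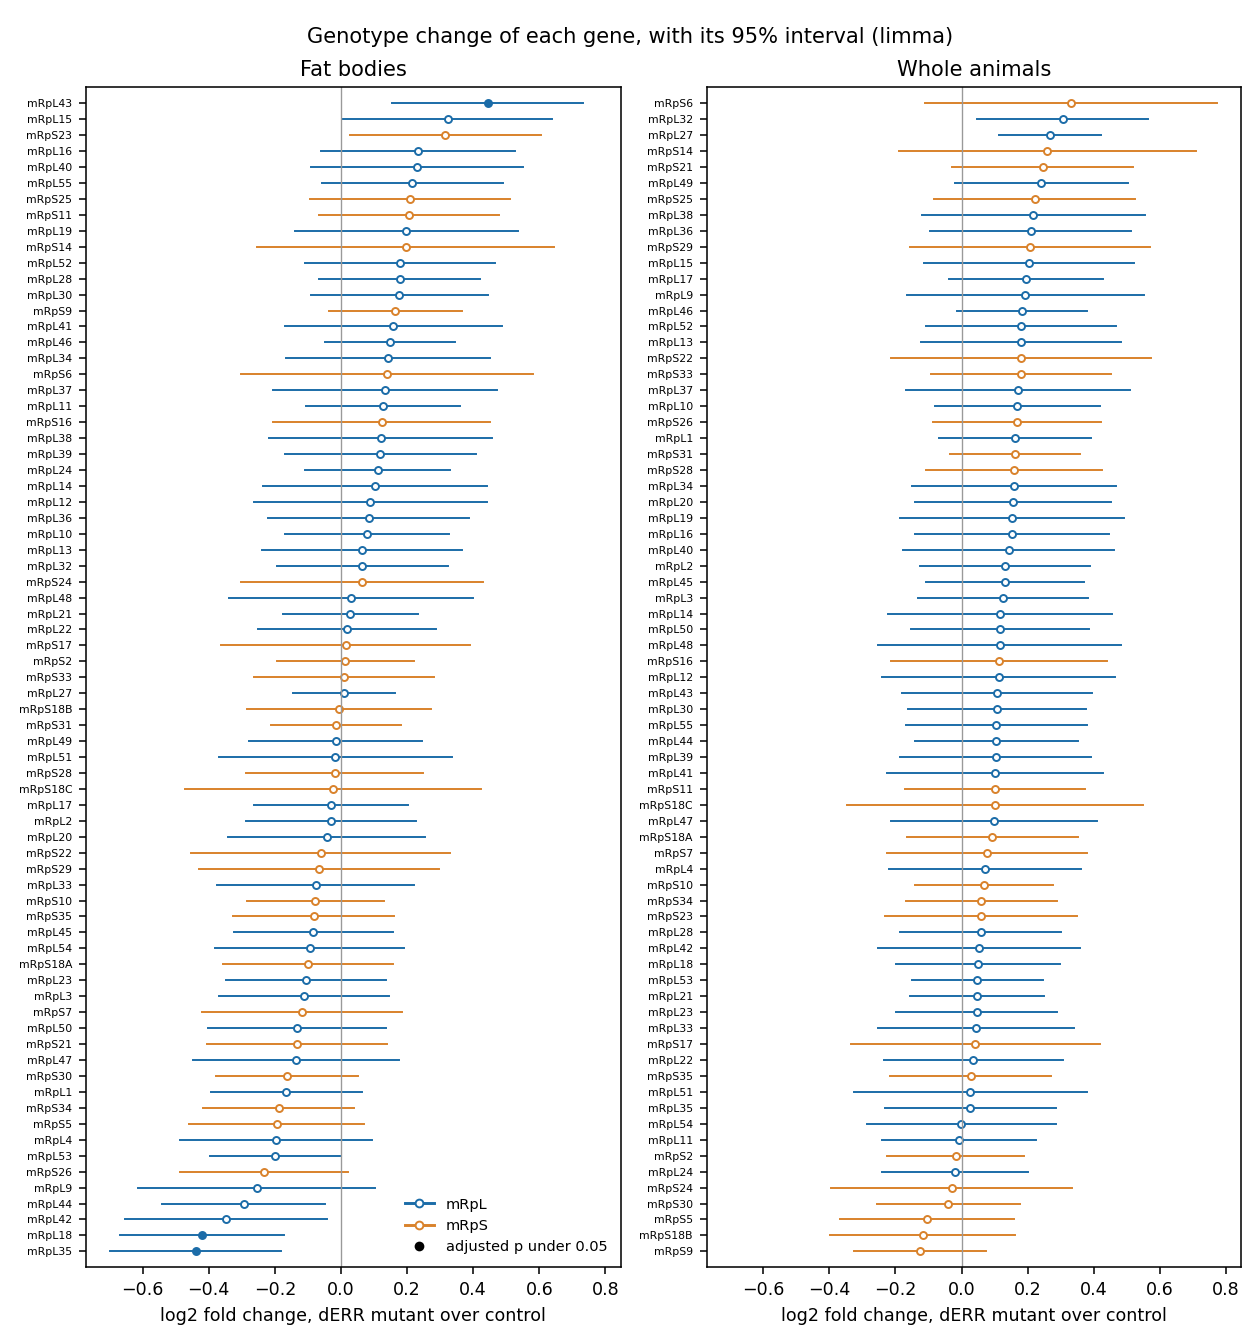
Log2 fold change of dERR mutants over heterozygous controls (x axis) for each of the 73 genes (rows, sorted by change), in fat bodies on the left and whole animals on the right, with bars for the 95% interval from limma and filled points for adjusted p under 0.05. In fat bodies the points fall on both sides of 0 with 3 filled, while in whole animals 64 of 73 lie above 0 and none is filled.

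mRpL35, whose bacterial homolog is a small protein of the large subunit, had 9.44, 9.57 and 9.66 in mutant fat bodies, against 10.13, 10.16 and 9.71 in control fat bodies. All mutant values were below all control values, and the library labelled control replicate 7 stood next to the highest mutant. The log2 fold change was −0.44 (SE 0.12, 0.738-fold, limma adjusted p = 0.0205). Whole animals had 9.26, 9.16 and 9.14 in mutants, against 9.24, 9.06 and 9.17 in controls, and these values overlap. The gene lies on chromosome 3R at 22023527 to 22024341, plus strand, in the BDGP6.54 annotation, and its exons overlap those of CG6028 on the other strand.

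mRpL18 belongs to the protein family that binds the smallest ribosomal RNA in bacteria. It had 9.15, 9.30 and 9.42 in mutant fat bodies, against 9.81, 9.85 and 9.47 in control fat bodies, again without overlap and with replicate 7 next to the mutants. The log2 fold change was −0.42 (SE 0.11, 0.747-fold, limma adjusted p = 0.0209). The whole animal values of 9.02, 8.85 and 8.998 in mutants overlapped 8.81, 8.97 and 8.94 in controls. The gene is a single exon on chromosome 2R, 12756434 to 12757173, plus strand, and overlaps ox on the other strand.

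mRpL43, a protein found in mitochondrial but not bacterial ribosomes, had 9.73, 10.05 and 10.04 in mutant fat bodies, against 9.68, 9.61 and 9.21 in control fat bodies. The groups did not overlap, and mutant replicate 1 stood next to control replicate 5. The log2 fold change was 0.44 (SE 0.13, 1.36-fold, limma adjusted p = 0.0324). Here the low value of the library labelled replicate 7 added to the difference, and without that library the change was 0.30 with a limma adjusted p of 0.0803. The gene lies on chromosome 2R at 23698105 to 23699014, plus strand, overlapping sigmar on the other strand.

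**Figure D2:**
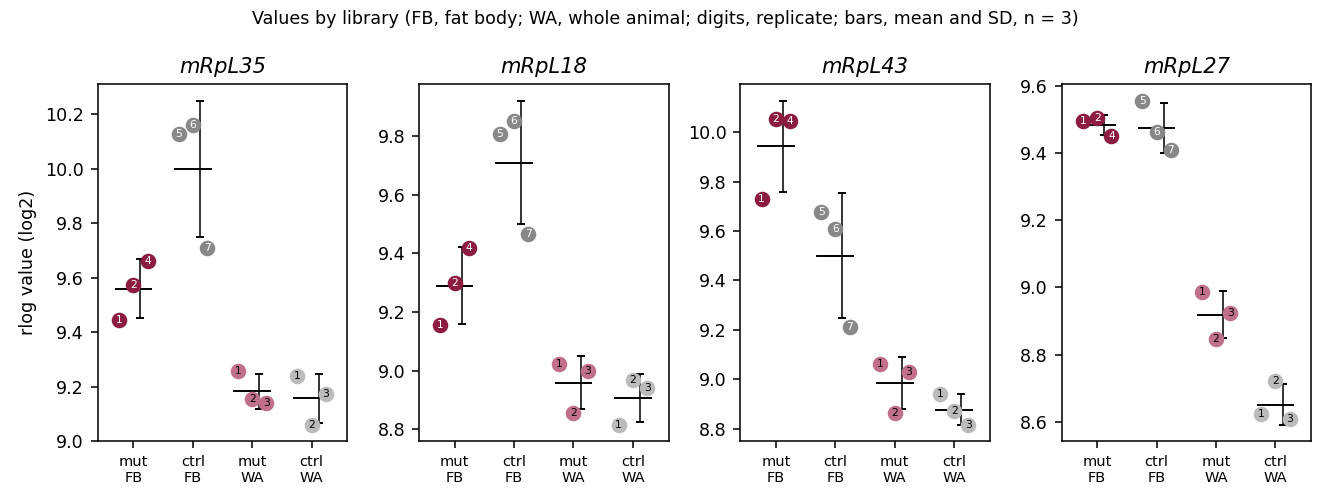
Rlog values (y axis, log2) of 4 genes in each of the 12 libraries, by group (mut, dERR mutant; ctrl, heterozygous control; FB, fat body; WA, whole animal), with lines for the group mean and bars for the SD. Control fat body library 7 is the lowest control for all 4 genes, next to the mutants for mRpL35 and mRpL18 and far below them for mRpL43 at 9.21.

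The library labelled control replicate 7 moved the whole family. It was the lowest of the 3 control fat bodies for 71 of the 73 genes, with a median of −0.43 relative to the mean of the other controls, whereas over all genes tested it was the lowest for 32.8% and its median difference was 0.02. The mean of the 73 genes was 9.76, 9.81 and 9.87 in the mutant fat bodies, against 9.92, 9.99 and 9.51 in the control fat bodies. The mutants therefore lay below control replicates 5 and 6 and above replicate 7. The median SD of a member between replicates was 0.09 in mutant fat bodies and 0.26 in control fat bodies, against 0.21 and 0.22 over all genes tested.

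**Figure D3:**
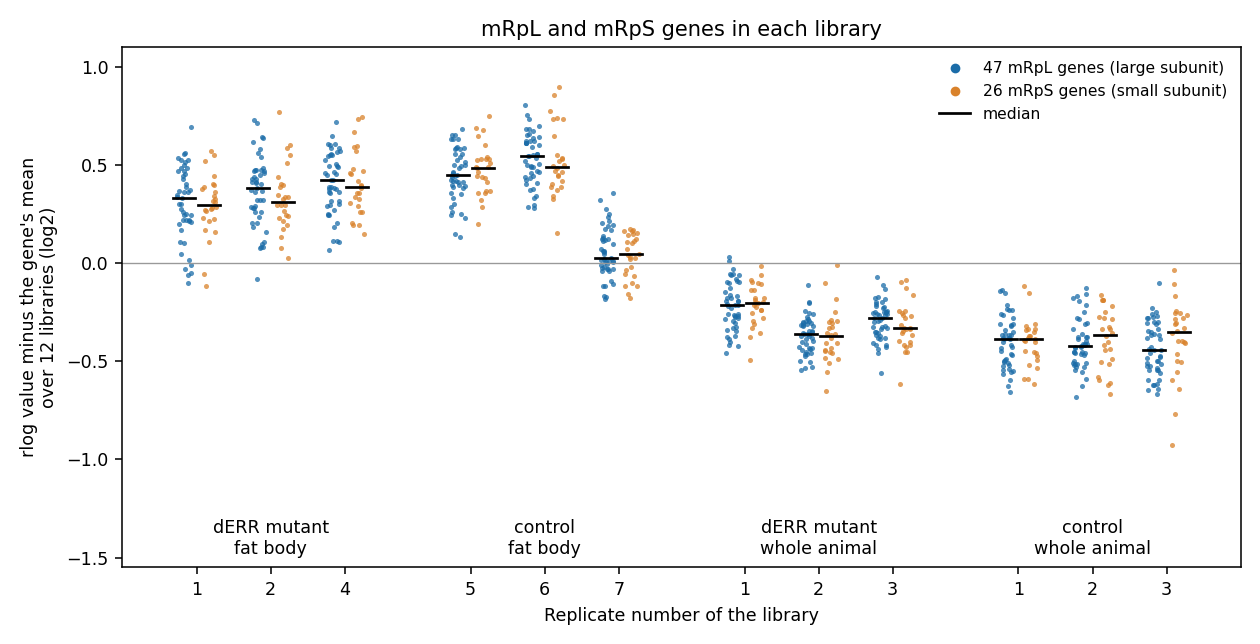
Each point is 1 of the 73 genes in 1 library, as its rlog value minus that gene's mean over the 12 libraries (y axis, log2), with large subunit genes in blue, small subunit genes in orange and a line at each median. Both subunits shift together between libraries, and fat body control 7 stands below the other 5 fat bodies.

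Other families moved with it. In the same library the cytosolic ribosomal protein genes were the lowest of the 3 controls for 82 of 89 genes (median −0.23) and the nuclear genes of the respiratory chain for 63 of 66 (median −0.35). The higher Lsp1gamma and muscle marker levels of this library are given above. The part of larval stage or of other tissue in the low ribosomal values was not tested.

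Since this library was the lowest control for 71 of the 73 genes, leaving it out raises the control means of those genes by construction. Their changes then move down whatever the genotype does, so the direction seen in this fit is not read as a fall of the family. Without this library, 11 of the 73 genes were lower in mutant fat bodies and 0 were higher at a limma adjusted p under 0.05. This is 15.1% of the family (25 genes with p under 0.05 before adjustment). Over all genes tested 11.9% were lower and 11.2% higher in this fit, so the share that was lower lies near the background and is not a result about the family. The median log2 fold change over the family was then −0.13, against −0.05 over all genes tested. Of the 73 changes 58 were negative and 15 positive, while 4642 of all 10069 genes tested had a positive change. Leaving out another control turned the family the other way. Without control replicate 6, 3 genes were higher (mRpL15, mRpL16 and mRpL43), 0 were lower, 52 of 73 changes were positive and the median was 0.11. Without control replicate 5, 1 gene was higher, 0 were lower, 48 changes were positive and the median was 0.08. By symbol the 11 genes lower without replicate 7 were 8 mRpL and 3 mRpS genes, and replicate 7 stood at or below the highest mutant for 9 of them. With mRpS30 and mRpS18A counted as large subunit genes, the split was 9 large and 2 small. The 11 genes are named because of their values. mRpL35 changed by −0.58 and mRpL18 by −0.54 in this fit (limma adjusted p = 0.000963 and 0.00291).

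The next in size was mRpL42, a mitochondria-specific protein, with 8.86, 9.20 and 9.03 in mutant fat bodies, against 9.49, 9.57 and 9.07 in control fat bodies. Its log2 fold change was −0.50 (limma adjusted p = 0.0128) without replicate 7 and −0.35 (limma adjusted p = 0.102) with it. mRpL9 had 9.41, 9.47 and 9.66 in mutant fat bodies, against 9.99, 9.98 and 9.33 in control fat bodies. In this gene replicate 7 was the lowest of all 6 fat bodies, and the change was −0.48 without it (limma adjusted p = 0.00747) and −0.26 with it (limma adjusted p = 0.308). mRpL44, which carries a ribonuclease III-like fold, had 10.39, 10.18 and 10.40 in mutant fat bodies, against 10.65, 10.83 and 10.38 in control fat bodies, and changed by −0.42 without replicate 7 (limma adjusted p = 0.0108).

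Of the small subunit genes, mRpS26 had 9.67, 9.65 and 9.55 in mutant fat bodies, against 10.09, 9.92 and 9.54 in control fat bodies. It changed by −0.39 without replicate 7 (limma adjusted p = 0.0042) and by −0.23 with it (limma adjusted p = 0.188). The other 5 genes, mRpL3, mRpL47, mRpL53, mRpS30 and mRpS34, changed by −0.32 to −0.26. mRpS30 had the narrowest error of these, with −0.30 (SE 0.05) without replicate 7 and −0.16 (SE 0.10) with it. mRpL15, also named because of its values, stood on the other side. It had 10.24, 10.18 and 10.32 in mutant fat bodies, against 10.04, 10.20 and 9.53 in control fat bodies. It did not pass with all libraries (limma adjusted p = 0.141) or without replicate 7 (limma adjusted p = 0.348), but was called higher without control replicate 6.

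**Figure D4:**
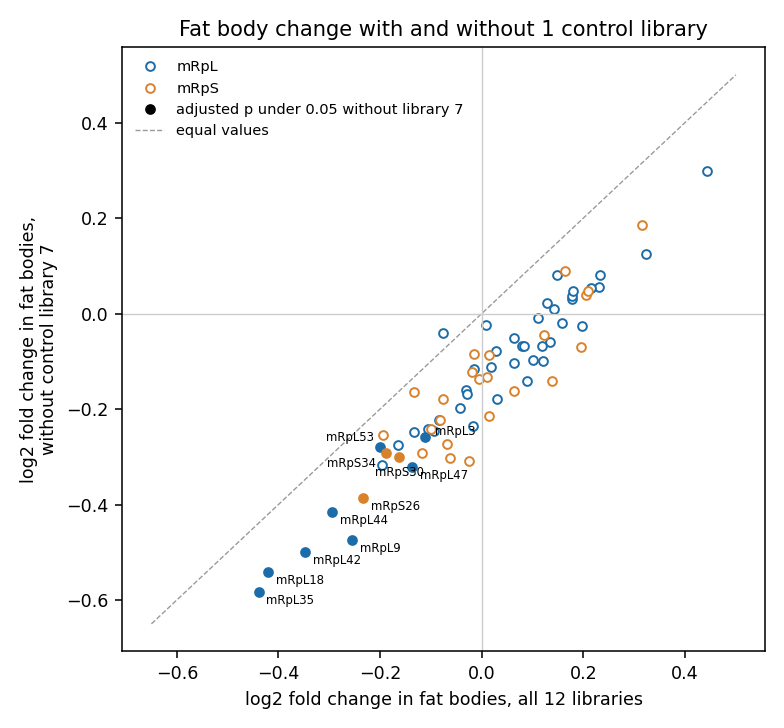
Log2 fold change of mutants over controls in fat bodies for each of the 73 genes, with all 12 libraries (x axis) and without the library labelled control replicate 7 (y axis), with filled points for limma adjusted p under 0.05 without that library. Most points lie below the line of equal values, and the 11 filled points are all negative. That library was the lowest control for 71 of the 73 genes, so leaving it out moves those points down by construction.

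In whole animals no gene of the family passed, and most stood slightly above the controls. The count at a limma adjusted p under 0.05 was 0 in either direction (2 before adjustment), against 3.29% of all genes tested. The median log2 fold change was 0.11 (0.12 for mRpL, 0.10 for mRpS), against 0.01 over all genes tested, and 64 of 73 changes were positive, against 51.6% of all genes tested. Changes ranged from −0.13 (mRpS9) to 0.33 (mRpS6), and the 95% interval of every gene lay within ±1, that of 71 genes within ±1.5-fold. All 3 mutants were above all 3 controls for 15 of the 73 genes, against 13.7% of all genes tested, and below them for 1 gene (mRpS30), against 13.5%.

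The mean of the 73 genes was 9.24, 9.09 and 9.15 in mutant whole animals, against 9.06, 9.06 and 9.04 in control whole animals. The groups did not overlap, and mutant replicate 1 stood above the other mutants. That replicate was the highest of the 3 mutants for 53 of the 73 genes, and also for 85 of 89 cytosolic ribosomal protein genes and 65 of 66 nuclear respiratory chain genes. Over all genes tested it was the highest mutant for 44.1%. Without it the median of the family was 0.08 and 56 of 73 changes were positive.

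The closest to the threshold was mRpL27, a large subunit protein near the catalytic centre in bacteria, with 8.99, 8.85 and 8.92 in mutant whole animals, against 8.62, 8.72 and 8.61 in control whole animals. The groups did not overlap, and the log2 fold change was 0.27 (SE 0.07, limma adjusted p = 0.0744). In fat bodies mRpL27 was 9.496, 9.505 and 9.45 in mutants, against 9.56, 9.46 and 9.41 in controls, a change of 0.01 with a 95% interval of −0.14 to 0.16. mRpS6 had the largest change, at 8.34, 8.14 and 8.26 in mutant whole animals, against 8.002, 7.93 and 7.82 in control whole animals, and did not pass (limma adjusted p = 0.669). mRpL27 and mRpS6 are likewise named because of their values.

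The genotype change in fat bodies did not differ from that in whole animals for any of the 73 genes at a limma adjusted p under 0.05 (7 before adjustment), whereas 10.2% of all genes tested did. The median difference between the changes was −0.11, against −0.03 over all genes tested. The difference was negative for 54 of the 73, and for 5313 of all 10069 genes tested. The lowest adjusted p was that of mRpL18 (difference −0.47, limma adjusted p = 0.0951), followed by mRpL35 (−0.47, limma adjusted p = 0.112). Without the fat body library labelled control replicate 7, the difference passed for 11 genes (15.1%), all more negative in fat bodies. Over all genes tested in that fit the difference passed for 13.2% in either direction and for 5.94% in the negative direction. Of these 11 genes, 8 were also among the 11 that were lower in mutant fat bodies in that fit. Leaving out the lowest control moves this difference down by construction as well, so its direction in that fit is not a separate result.

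Fat bodies held more of these transcripts than whole animals in both genotypes. In controls all 73 genes were higher in fat bodies at a limma adjusted p under 0.05, against 24.9% of all genes tested. In mutants 69 were higher, against 24.4% of all genes tested, and the other 4 were mRpL53, mRpS21, mRpL42 and mRpL9. None reached a log2 difference of 1 by a test against that size in either genotype. The median log2 difference was 0.67 in mutants and 0.78 in controls, while the median of all genes tested was −0.36 in mutants and −0.38 in controls. The background includes genes that passed the filter only through whole animals, such as the midgut markers. Of the 10069 genes, 4708 were lower in control fat bodies and 4634 in mutant fat bodies. The contrast with all genes is therefore partly one with genes of other tissues. The excess of the family over whole animals was not particular to it. In controls 82 of 89 cytosolic ribosomal protein genes (median 0.72), 59 of 66 nuclear respiratory chain genes (0.55) and 12 of 14 mitochondrial translation factor genes (0.69) were also higher. In mutants 78, 51 and 12 of these were higher, and 2, 2 and 0 were lower. Of 17 genes of the mitochondrial genome, 6 were higher in controls and 5 in mutants. When each library was centred on its median gene, the median of all genes tested shifted by 0.86 in mutants and 0.90 in controls, and the family stood at 1.52 in mutants and 1.68 in controls. The tissue difference cannot be told apart from any effect of dissection, which only the fat bodies went through.

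The difference was not equal across genes. mRpS14, of the small subunit head, had the largest, with 9.65, 9.90 and 9.86 in mutant fat bodies against 8.83, 8.47 and 8.73 in mutant whole animals, a difference of 1.12 (SE 0.20). In controls mRpS14 had 9.88, 9.87 and 9.07 in fat bodies against 8.54, 8.52 and 8.20 in whole animals, a difference of 1.19 (SE 0.20), but its exons overlap those of CG32533 on the same strand, so reads could be shared. mRpL53 had the smallest, with 9.999, 9.90 and 10.10 in mutant fat bodies against 10.01, 9.87 and 9.78 in mutant whole animals (0.11, SE 0.09, limma adjusted p = 0.283). In controls mRpL53 had 10.23, 10.33 and 10.04 in fat bodies against 9.84, 9.80 and 9.88 in whole animals (0.36, SE 0.09, limma adjusted p = 0.00378), and it likewise shares exon sequence on its strand with CG33155. mRpL53 ranked 2 of 73 per kilobase in control whole animals and 10 of 73 in control fat bodies.

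**Figure D5:**
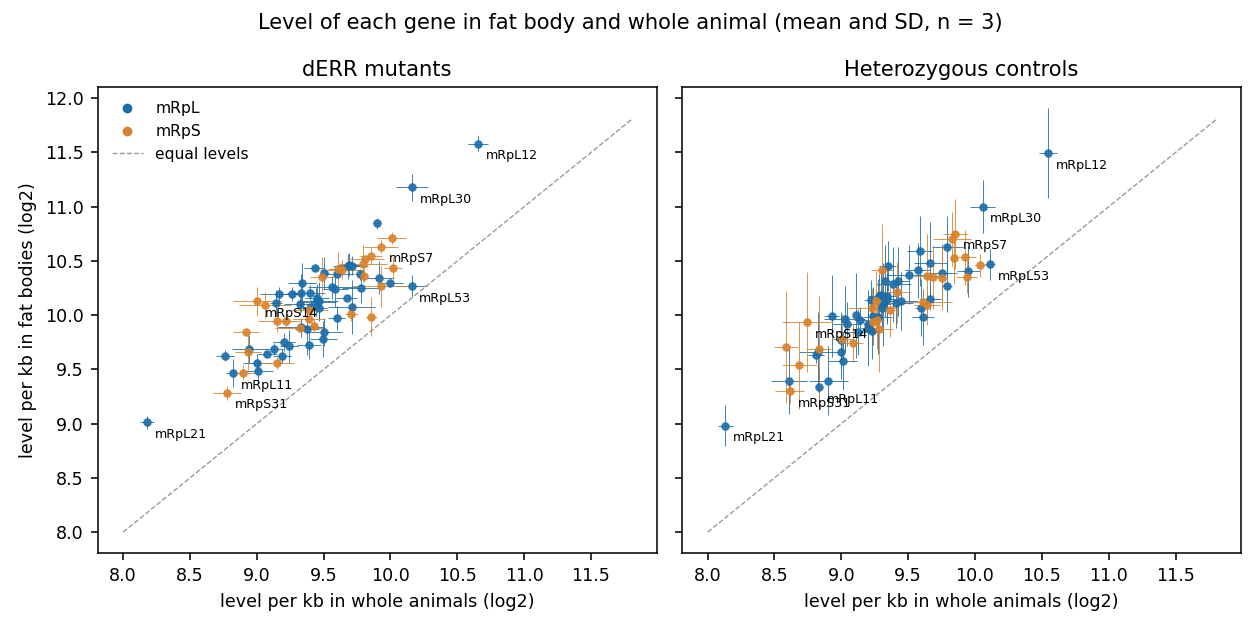
Level per kilobase of the longest transcript (log2) of each of the 73 genes in fat bodies (y axis) against whole animals (x axis), in dERR mutants on the left and heterozygous controls on the right, with bars for the SD of 3 libraries. All points lie above the dashed line of equal levels, and mRpL12 is highest and mRpL21 lowest in both panels. For most genes, though not for all, the vertical bars are longer in controls.

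Medians were also taken by subunit and by protein number. In fat bodies the median log2 fold change was 0.05 for the 28 mRpL genes numbered up to 36, which mostly have bacterial relatives, and 0.03 for the 19 numbered above. It was 0.00 for the 14 mRpS genes numbered up to 21 and −0.04 for the 12 numbered above. In whole animals the same 4 classes had medians of 0.13, 0.11, 0.09 and 0.16 in that order. All 3 genes that passed in fat bodies were of the large subunit, and the difference between subunits was not tested.

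The 3 mRpS18 genes encode related proteins that in mammals occupy different places on the ribosome, mRpS18A being on the large subunit. mRpS18A had 9.61, 9.58 and 9.77 in mutant fat bodies, against 9.95, 9.83 and 9.47 in control fat bodies. mRpS18B had 9.73, 9.63 and 9.84 in mutant fat bodies, against 9.73, 10.02 and 9.48 in control fat bodies. mRpS18C had 8.57, 8.91 and 8.74 in mutant fat bodies, against 9.004, 9.09 and 8.20 in control fat bodies. Mutants and controls overlapped for all 3 genes, with changes of −0.10, −0.01 and −0.03 and limma adjusted p-values of 0.618, 0.977 and 0.94. Their whole animal changes of 0.09, −0.12 and 0.10 did not pass either. Per kilobase in control fat bodies mRpS18A stood at 10.53, mRpS18B at 9.95 and mRpS18C at 9.69.

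tko and bonsai are small subunit proteins of the mitochondrial ribosome under older fly names, outside the rule. tko had 9.89, 10.06 and 10.11 in mutant fat bodies, against 10.003, 10.40 and 9.93 in control fat bodies (log2 fold change −0.09, limma adjusted p = 0.678). bonsai had 10.86, 10.65 and 10.72 in mutant fat bodies, against 10.85, 10.78 and 10.47 in control fat bodies (0.04, limma adjusted p = 0.807). Their groups overlapped, as they did for most mRpL and mRpS genes.

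Genes for other parts of mitochondrial translation were set beside them in fat bodies. Of 14 translation factors and related genes, 2 were higher in mutants and 0 lower, and of 15 mitochondrial aminoacyl-tRNA synthetases 3 were higher and 0 lower. These are 14.3% and 20.0% of the lists, against 11.1% of all genes tested that were higher and 11.2% that were lower, and with so few genes both shares are near the background. The library labelled control replicate 7 was the lowest control for 13 of the 14 and 13 of the 15 genes. Without it the counts were 2 higher and 0 lower among the factors, and 3 higher and 1 lower among the synthetases. GatC, a subunit of the enzyme that completes glutaminyl-tRNA in mitochondria, had 9.71, 9.86 and 9.97 in mutant fat bodies, against 9.38, 9.41 and 9.13 in control fat bodies (0.54, SE 0.09, limma adjusted p = 0.00191). The initiation factor gene mIF2 changed by 0.45 (SE 0.11, limma adjusted p = 0.011). The synthetase genes were CysRS-m at 0.53, AspRS-m at 0.40 and ArgRS-m at 0.40, with all mutants above all controls. The same 5 genes passed without the library labelled control replicate 7, with changes of 0.45, 0.37, 0.48, 0.38 and 0.39 in the order named. mRpS9 overlaps ArgRS-m on the other strand, and mRpS9 had a log2 fold change of 0.16 that did not pass.

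For the steps before and after translation the counts are read against the 22.3% of all genes tested that passed in either direction. None of 15 genes for mitochondrial DNA maintenance and transcription passed in fat bodies (4 before adjustment, median −0.12), while 3 were lower without the library labelled control replicate 7. None of 17 genes of the mitochondrial genome passed (3 before adjustment, median −0.26), and here the library labelled control replicate 7 was the highest of the 3 controls for 13 of 17. Of 66 nuclear genes of the respiratory chain and ATP synthase, 1 was lower and 0 higher, namely SdhA, a subunit of succinate dehydrogenase, at −0.30 (limma adjusted p = 0.0485), whose groups overlap. Of 89 cytosolic ribosomal protein genes 2 were lower and 0 higher, RpLP2 at −0.42 and RpL38 at −0.59. Without that library 2 respiratory chain genes were lower, and RpL38 no longer passed (−0.42, limma adjusted p = 0.0832). A list of 10 regulators described for mitochondrial or ribosomal genes includes ERR, the mutated gene itself. Of these 10, 1 was higher and 2 were lower, and without the library labelled control replicate 7 there were 2 higher and 3 lower. With all libraries this is 30.0% of a short list, near the background. crc, the fly ATF4, was higher at 0.55, foxo was lower at −0.97 and srl, the fly PGC-1 homolog, was lower at −0.70. Without that library 11.2% of all genes tested were higher and 11.9% lower, so the shares of this list stood above the background. The genotype change then differed between tissues for 4 of the 10, against 13.2% of all genes tested. With 10 genes, and with the mutated gene among them, these shares are not read as a result about the list.

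In whole animals no gene of these lists passed. The cytosolic ribosomal protein genes had a median of 0.21 with 88 of 89 positive (23 with p under 0.05 before adjustment), and the respiratory chain genes a median of 0.18 with 66 of 66 positive (8 before adjustment). Both families thus stood on the same side of 0 as the mRpL and mRpS genes, and mutant replicate 1 was the highest mutant for most genes of all 3.

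The 73 genes were also described by their annotation. They were short, with a median longest transcript of 783 nucleotides, against 1700 over all protein-coding genes of the annotation, and 55 had a single transcript (75.3%, against 49.5% of protein-coding genes). They were spread over the large chromosome arms, with 11 on X, 12 on 2L, 12 on 2R, 17 on 3L, 21 on 3R and 0 on chromosome 4. All protein-coding genes were spread in a like way, with 15.1% of the family on X against 15.7%, 16.4% on 2R against 20.4% and 28.8% on 3R against 24.5%. Exons of 42 genes (57.5%) overlapped exons of a gene on the opposite strand, as did 28.0% of protein-coding genes. Libraries were stranded, but how strand entered the counting was not examined here, so these genes carry that uncertainty.

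Their values also moved together between libraries. The correlation of a gene's deviations from its group means with the mean deviation of the other 72 had a median of 0.85 over the 12 libraries and was over 0.5 for 70 of 73 genes. Without the fat body library labelled control replicate 7 the median was 0.53 and 40 of 73 exceeded 0.5. In the 6 whole animals alone the median was 0.62, 47 of 73 exceeded 0.5 and the lowest was −0.92 (mRpS5). Other gene sets were not measured in this way, so there is no background for these values. These correlations are descriptions, since the genes share libraries and scaling.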

How the data were processed

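Poly-A selected, stranded, paired-end RNA-seq libraries of 12 samples were analysed. The authors quantified transcripts with Salmon 1.10.2, summed them to genes with tximport and transformed the counts with the rlog function of DESeq2 1.42.0. The deposited values are therefore on a log2 scale, divided by size factors and shrunk toward each gene's mean, which reduces differences of weakly expressed genes. Counts and depth per library are unknown here, and no interval that needs depth is given. The labels give an age of 60 h, as do the study's husbandry methods and the legends of its expression results. Its section on RNA preparation gives a later age and another RNA kit.

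Genes with a group mean of at least 3.32 (10 on the linear scale) in 1 or more groups were fitted with limma 3.58.1 in R 4.3.3, with 1 mean per group over the 12 samples, a mean-variance trend and Benjamini-Hochberg adjustment over 10069 genes. Intervals are 95% intervals from that fit. With 3 against 3 samples an exact permutation test cannot go below p = 0.1, so none is used. Levels per kilobase subtract the log2 of the longest transcript length in the BDGP6.54 annotation (Ensembl release 115), matched by gene identifier for all 73 genes. Values are named for the genes that passed without overlap, up to 10 in each direction and tissue, the 3 highest and 3 lowest per kilobase, the mRpS18 genes, up to 4 genes that passed in each other list, and others stated as chosen after their values were seen. The genes, gene lists and tests were chosen with earlier results of these data known. The alternatives were other fits, scalings, filters and thresholds, and leaving out each library. Giving the fit without the library labelled control replicate 7 at length, and repeating the other lists without it, were chosen after seeing the data. Counting mRpS30 and mRpS18A with the large subunit was also chosen then. With all 12 libraries this count left the fat body results at 1 higher and 2 lower for the large and 0 for the small subunit. Without the library labelled control replicate 7 it moved the counts of lower genes to 9 for the large and 2 for the small subunit. No sequence is shown.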

Additional observations from a re-analysis of the deposited data

Results flagged for a closer look

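For none of the 73 mRpL and mRpS genes did the genotype change differ between fat bodies and whole animals in the fit of all 12 libraries. It did differ for 4 genes named from the other lists, by limma's interaction test, as for 10.2% of all genes tested. These genes were named because their fat body change passed, and that change is part of the difference. For GatC the fat body change minus the whole animal change was 0.51 on the log2 scale (limma adjusted p = 0.0345), from a fat body change of 0.54 and a whole animal change of 0.03. For crc it was 0.57 (limma adjusted p = 0.0111), from a fat body change of 0.55 and a whole animal change of −0.02. For foxo it was −1.08 (limma adjusted p = 0.0037), from a fat body change of −0.97 and a whole animal change of 0.11. For RpLP2, of the stalk of the cytosolic ribosome, it was −0.70 (limma adjusted p = 0.0117), from a fat body change of −0.42 and a whole animal change of 0.28. Without the library labelled control replicate 7 the 4 differences were 0.42, 0.51, −1.07 and −0.81 in the order named, and each passed. In that fit 13.2% of all genes tested passed. Each of the 4 had fat body values that did not overlap between mutants and controls, as did 40% of all genes tested. Since the 4 were named for their fat body change, this is not separate support. No group had the 4 samples that a test for single outlying values needs.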

How the results depend on the processing

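With all 12 libraries, 1 of the 73 genes was higher and 2 were lower in mutant fat bodies, and these counts were sensitive to the processing. The higher count was 0 when each tissue was fitted alone, with array weights, with no variance trend, with samples centred on their medians, with a test against a log2 fold change of 1 and at an adjusted p under 0.005, and 2 after quantile normalization. Leaving out 1 library gave 0 to 3. The lower count was 0 with each tissue fitted alone, with the test against a log2 fold change of 1 and at an adjusted p under 0.005, and leaving out 1 library gave 0 to 11, the 11 without the fat body library labelled control replicate 7. Without control replicate 5 or 6 or mutant replicate 1 it was 0, and without mutant replicate 2 it was 1. mRpL35 and mRpL18 kept a negative fat body change in every alternative run, and mRpL43 a positive one. In whole animals the count of higher genes was 2 with array weights (mRpL27 and mRpL32), 1 after quantile normalization (mRpL27), and 0 without any 1 library. The count of genes whose fat body change was below their whole animal change was 3 with array weights, 2 after quantile normalization and 0 to 11 without 1 library. The test against a log2 difference of 1 between tissues called 0 genes in both genotypes. The median tissue difference in mutants was 0.67, 0.73 with array weights, 1.52 after centring and 0.82 after quantile normalization, and in controls 0.78, 1.68 after centring and 1.03 after quantile normalization. The cause of these changes was not tested. Medians by subunit in fat bodies ran over 0 without 1 library, at −0.10 to 0.12 for the large and −0.16 to 0.09 for the small subunit. Same-numbered mutant and control whole animals did not deviate together (correlations −0.02, −0.05 and −0.13). A replicate block in whole animals called 0 of the 73 genes in either direction. Fat body numbers are not shared between genotypes. Depth is unknown, and 3 libraries per group limit the precision.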
